A study of Homo sapiens with 3 samples.

Results

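The genes described here are 327 long intergenic non-coding RNA (lincRNA) genes whose annotated interval overlaps at least 1 other gene listed in a table of RNA recovered with CTCF from U2OS cells. CTCF is a zinc-finger protein that binds DNA and organises chromatin loops, and U2OS is a human osteosarcoma cell line. RNA was recovered by PAR-CLIP: cells took up 400 µM 4-thiouridine for 16 to 24 h, ultraviolet light of 365 nm (400 mJ/cm2) crosslinked it to protein in contact with RNA, and CTCF was precipitated from nuclear lysate. The labels give 2 replicates, precipitated with different lots of 1 antibody, and their merge. Only the merge was analysed here, so that 1 condition and 1 sample are described, with no replicate error, and no input or control precipitation was analysed here. The table lists 17201 genes, 866 of them annotated as lincRNA, with a count of 6 or more each. A member had to be annotated as lincRNA and share at least 1 base with another interval, both listed with 6 or more counts. Of 332 such genes, 5 were left out by name (MIR4435-2HG, DUXAP9, DUXAP10, SNHG19 and SNHG25), and the other 327 make up 37.8% of all lincRNA genes (95% Clopper-Pearson interval 34.5 to 41.1%). Over all listed genes, 40.8% overlap another.

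LincRNAs are transcribed from stretches between protein-coding genes, and some act in the nucleus on chromatin or on the genes beside them. Their annotated intervals run from the first to the last exon, introns included, and can enclose or cross other transcription units. Many enclose processed pseudogenes, intron-less copies of messenger RNAs that were reverse-transcribed back into the genome and resemble their parent gene closely. Where reads are counted over whole intervals, a read in an overlap adds to the count of each gene there, and the comparisons below take the counts in this sense.

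Several members are hosts of microRNAs, small RNAs that pair with target messages through their seed. The sequences below are a selection from FTX and from 4 hosts named after their microRNAs, with the seed (bases 2 to 8) in capitals. They were taken from RefSeq (GRCh38.p14), where 8 of the members with a symbol enclose a microRNA gene, 15 distinct ones in all. That the hg19 intervals of the table also enclose them was not tested. The let-7 RNAs of MIRLET7A1HG and MIR99AHG share 1 seed, whereas the others shown each have their own. In RefSeq the gene of let-7d also lies in LINC02603, another member.
hsa-let-7a-5p (MIRLET7A1HG): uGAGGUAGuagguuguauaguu
hsa-let-7d-5p (MIRLET7A1HG): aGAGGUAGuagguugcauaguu
hsa-let-7c-5p (MIR99AHG): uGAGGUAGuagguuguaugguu
hsa-miR-99a-5p (MIR99AHG): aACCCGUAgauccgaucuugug
hsa-miR-125b-5p (MIR99AHG): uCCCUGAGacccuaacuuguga
hsa-miR-421 (FTX): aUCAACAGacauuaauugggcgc
hsa-miR-545-3p (FTX): uCAGCAAAcauuuauugugugc
hsa-miR-4307 (MIR4307HG): aAUGUUUUuuccuguuucc
hsa-miR-4527 (MIR4527HG): uGGUCUGCaaagagaugacugu

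Counts of all listed genes ran from 6 to 6801 and summed to 1322047, a sum in which reads of overlapping genes can stand more than once. Of the 8 mesenchymal and osteosarcoma markers examined, 7 were listed, with FN1 for fibronectin at 1277 counts and ALPL for the bone phosphatase at 8. COL1A2 was not listed. None (0) of the 4 blood markers was listed. Of the 4 epithelial markers, CDH1 and KRT18 had 13 and 146 counts, and EPCAM and KRT5 were not listed. Intervals given below are exact Poisson intervals for counts and exact Clopper-Pearson intervals for shares, both at 95%. They cover counting error only, since amplified reads are not independent molecules and genes are not replicates.

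Members had low counts, with a median of 20, quartiles of 10 and 44 and a maximum of 685. Some lincRNA genes that overlap no listed gene were also left out by the rule on names. The 527 that were kept had a median of 14, quartiles of 9 and 26 and a maximum of 6801. A count of 100 or more was reached by 20.5% of all listed genes and by 22.4% of the overlapping genes that are not members. It was reached by 43 members, or 13.1% (9.68 to 17.3%), against 21 of the 527 other lincRNA genes, or 3.98% (2.48 to 6.03%). The intervals were of like length, with a median of 31.1 kb among members and 28.8 kb among the others. Counted per kb of interval, the medians were 0.872 in members and 0.571 in the others. Reads of the overlapping genes can be part of the members' counts. Membership also needs an overlapping gene with 6 or more counts, to which the lincRNA's own reads in the overlap can add. A lincRNA gene with more reads can thus become a member more readily. The part of either in this difference was not tested. Across members, higher counts went with longer intervals (Spearman's rho 0.40 over 327 genes, which are not independent). All members together held 16650 counts.

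The 327 members formed 345 distinct pairs with listed genes, 70 of them between 2 members. Genes that overlap a member numbered 386, with members that overlap another member included. There were 263 members with 1 overlapping gene, 54 with 2 and 10 with 3 or more. For each member, the gene that shares most bases with it was taken as its overlapping gene. Another lincRNA filled that place for 123 members (37.6%), a protein-coding gene for 93 (28.4%) and a pseudogene for 71 (21.7%). Processed transcripts (21), antisense genes (16), sense-intronic genes (2) and 1 sense-overlapping gene made up the rest. The member lay wholly inside the overlapping gene in 100 cases (30.6%), wholly around it in 85 (26.0%) and overlapped it in part in 142 (43.4%).

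Lower counts than those of the overlapping gene were found for 186 members, or 56.9% (51.3 to 62.3%). Equal counts were found for 21 and higher ones for 120. Among the 6687 other listed genes that overlap a listed gene, 54.6% were the lower of the pair, so the members' share is near the background. The median log2 ratio of a member's count to that of its overlapping gene was -0.58, with quartiles of -2.27 and 0.44. The ratio varied with the class of the overlapping gene. Beside a protein-coding gene the median was 15 counts for the member and 72 for the protein-coding gene, beside another lincRNA 27 and 33, and beside a pseudogene 29 and 16. The count was lower in the member for 75 of the 93 members paired with a protein-coding gene and for 15 of the 71 paired with a pseudogene. Of these pseudogenes, 47 lay inside the member and 5 around it, against 9 and 42 of the protein-coding genes. In nested pairs the counting fixes which gene can be lower, so the differences between classes cannot be told apart from nesting. Nested pairs numbered 233 when counted from each member, so that a pair of 2 members enters for each of them. In none (0) did the inner gene exceed the outer, which counting over whole intervals requires.

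**Figure D1:**
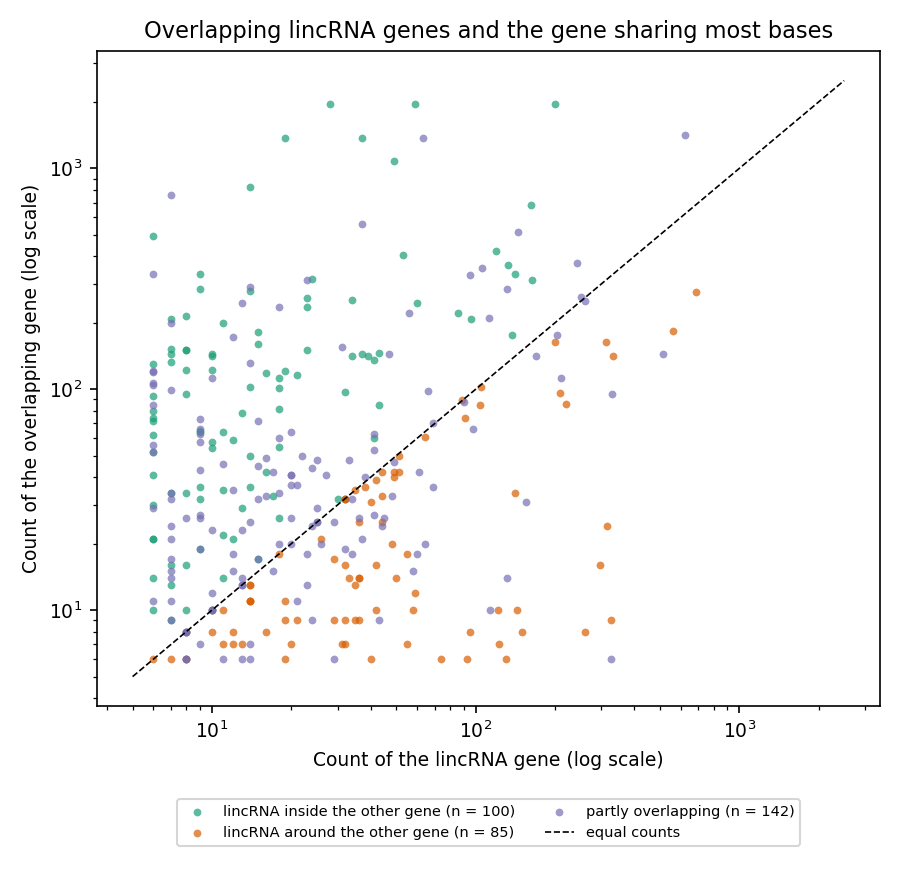
Count of each of the 327 lincRNA genes (horizontal, log scale) against the count of the listed gene that shares most bases with it (vertical, log scale), coloured by how the intervals lie. Points for the 100 lincRNA genes inside another gene lie on or above the dashed line of equal counts, those for the 85 that lie around another gene lie on or below it, and partly overlapping pairs fall on both sides.

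The 10 members with the highest counts are of very different make-up. The highest, ENSG00000230021 on chromosome 1 (536816 to 655580, hg19), had 685 counts (635 to 738) over 119 kb. FRMD6-AS2 on chromosome 14 (51921230 to 52066670) had 622 (574 to 673), and FRMD6, which encodes a scaffold protein of the Hippo pathway and covers 76.2% of it, had 1410. FTX on the X chromosome (73183790 to 73512177), a gene of the X-inactivation centre, had 563 (517 to 611). ENSG00000256248 on chromosome 12 had 513, against 145 in the lincRNA gene ENSG00000257083 that crosses its end. The other 6 had 311 to 332 counts over intervals of 110 to 750 kb: ENSG00000233005, ENSG00000248515, ENSG00000223477, LINC02307, ENSG00000253642 and ENSG00000185044. LINC02307 had 325 counts, against 9 in the 0.552 kb pseudogene it encloses, and ENSG00000223477 had 326, against 6 in the gene it shares 16.0 kb with.

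How many counts could not belong to an overlapping gene was bounded from below by subtracting from each member's count those of all genes overlapping it. Counts were left for 105 members, or 32.1% (27.1 to 37.5%). Among the other overlapping genes of the table, 37.3% kept counts in this way. A count of at least 6, the floor of the table, was left for 75 members and at least 10 for 65. The counts left summed to 5139, or 30.9% of the members' total. By construction nothing was left for the 100 members inside another gene. Counts were left for 68 of the 85 members around another gene and for 37 of the 142 that overlap in part.

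The 5 members with most counts of their own were intervals of 162 to 434 kb. At least 368 of 513 counts of ENSG00000256248 lay outside the gene it crosses. In LINC02307 at least 316 of 325 lay outside the enclosed pseudogene, in ENSG00000223477 at least 300 of 326, in ENSG00000253642 at least 283 of 316, and in LINC01411 at least 280 of 296. LINC01411 (173763298 to 173953457 on chromosome 5) encloses GAPDHP71, a copy of the glycolytic gene GAPDH, which had 16 counts. LINC00470 kept 253 of 261 counts and ENSG00000189229 kept 142 of 150, against 8 counts in the gene inside each, a pseudogene and GRM7-AS3. For FRMD6-AS2, in contrast, the bound was 0, and for ENSG00000230021 it was 40 of 685.

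**Figure D2:**
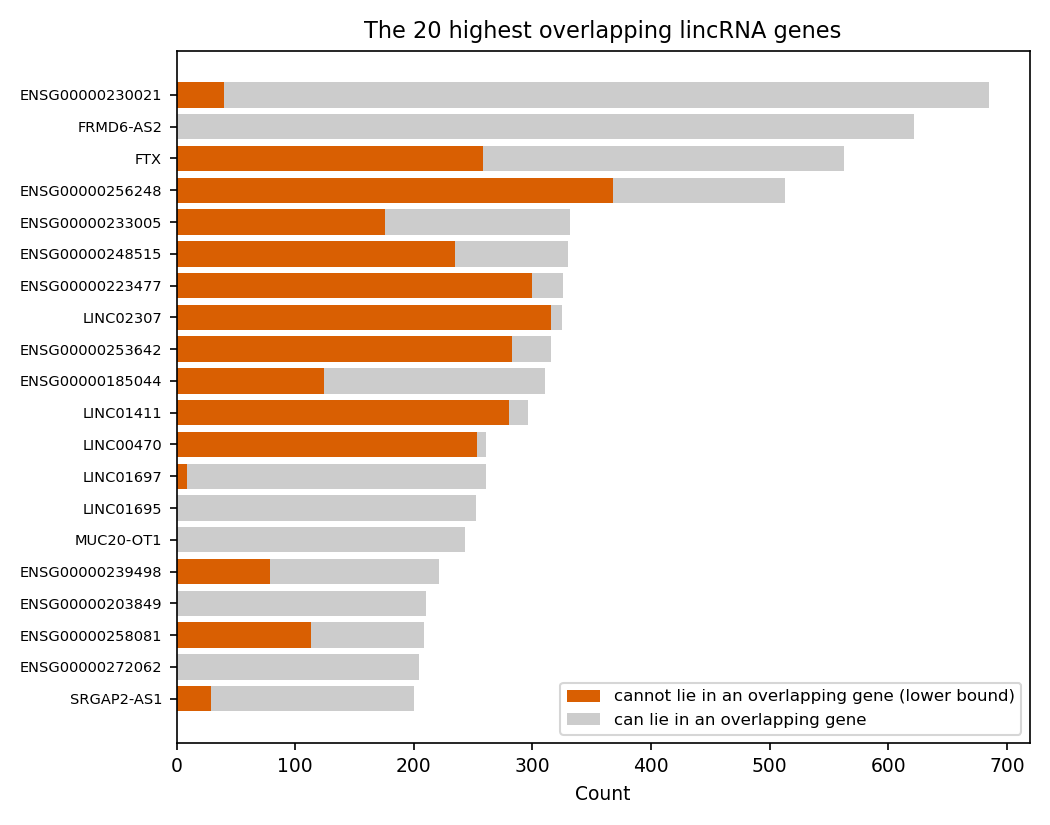
Counts of the 20 highest members, with the part that cannot lie in an overlapping gene (orange, a lower bound) and the part that can (grey). LINC02307, LINC01411 and LINC00470 are almost wholly orange, whereas FRMD6-AS2 and MUC20-OT1 have no orange part and ENSG00000230021 has 40 of 685.

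Pseudogenes lay wholly inside 58 members, in 72 pairs with 68 distinct pseudogenes, and held a large part of these members' counts. The enclosed pseudogene had a median of 1.88% of the member's length and 53.4% of its counts. In 37 pairs, or 51.4% (39.3 to 63.4%), it held at least 50% of the member's counts, and in 9 it held all of them. Where the outer gene is not a member, 23.7% of 637 enclosed pseudogenes held that much. The share was 55.3% for 47 pairs inside antisense genes and 17.9% for 498 pairs inside protein-coding genes. Where the outer gene has at least 30 counts, the share was 36.5% in members (19 of 52 pairs) and 13.6% elsewhere. Without the enclosed pseudogenes, the median count of the 58 members was 8.5 in place of 35, and 28 of them were under the floor of 6 counts. Under this counting, a lincRNA gene that encloses a listed pseudogene is itself listed, even with no other reads. This way of entry builds high shares into the pairs, and its part in the shares above was not tested.

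NRAD1, a lincRNA gene known from breast cancer cells, had the highest count of the members whose counts could all lie in 1 pseudogene that they enclose. It had 89 counts over 118 kb on chromosome 13 (44482850 to 44600977). The pseudogene DGKZP1, a 2.78 kb copy of the diacylglycerol kinase gene DGKZ (44542560 to 44545335), also had 89, so that 0 counts were left for the other 115 kb. With that rest set at 3 counts, the density in the pseudogene was 1233 times that in the rest of NRAD1. This value depends on the 3 counts chosen and is not a lower limit. ENSG00000235979 had 35 counts, as did RPS2P46, a copy of a ribosomal protein gene, in 0.883 of its 21.6 kb. ENSG00000227240 had 32 counts, as did EEF1A1P14, a copy of the translation elongation factor gene EEF1A1, in 1.376 of its 49.2 kb. LINC02893 had 18 counts, as did CDC20P1, a copy of a cell-cycle gene.

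On chromosome 3, LINC02067 (161144215 to 161166030), ENSG00000269888 inside it (161146900 to 161147401) and RPL23AP42 inside both (161146915 to 161147385) each had 32 counts (21.9 to 45.2). A single copy of a ribosomal protein gene, 0.471 kb long, could thus hold the counts of 2 members. ENSG00000269888 also had the highest density of all members, 63.7 counts per kb. In ENSG00000262477, with 41.7 counts per kb among the 5 highest by density, 42 of 44 counts fell in HNRNPA1P7, a copy of a splicing-factor gene that makes up 91.3% of it.

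In other members a few counts were left beside the copy. LINC01641 had 51 counts and NUCKS1P1, in 1.88% of its length, had 50. ENSG00000254777 had 64 and NASPP1, a copy of a histone chaperone gene, 61. LINC01378 had 38 over 263 kb and NT5C3AP1 36 over 1.66 kb. ANKRD34C-AS1 had 42 and HNRNPCP3, a copy of the RNA-binding protein gene HNRNPC, 39. LINC01122 had 91 counts over 498 kb, and a pseudogene without a symbol had 74 of them in 1.74 kb. These 5 members would stand between 1 and 17 counts without the copy.

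Reads of a copy and of its parent message are hard to tell apart, and the handling of reads with more than 1 map position is not stated in the sources used here. For 37 of the 72 pairs a parent gene could be read from the pseudogene's symbol, and in 35 of these pairs the parent was itself listed. Some parents recur, such as HNRNPA1, KRT18 and RPL23A. Over these pairs the parent's count ran from 7 to 726 with a median of 100. The median over all listed genes, non-coding genes and pseudogenes included, was 31. Among the parents were HNRNPC with 726 counts, NUCKS1 with 593, EEF1A1 with 539 and NASP with 473. The part of the parents' reads in the counts of the copies was not tested.

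ENSG00000230021, the member with the highest count, encloses 7 pseudogenes of mitochondrial genes, a stretch of mitochondrial DNA inserted in chromosome 1. MTCO1P12 (566454 to 567996) had 276 counts, MTATP6P1 95, MTND2P28 79, MTND1P23 69, MTCO3P12 59, MTCO2P12 51 and MTATP8P1 16. Together they had 645 counts, or 94.2% of the 685 of the member, in 4.27% of its length. Of these, MTATP8P1 and MTCO3P12 overlap MTATP6P1, so a few reads may stand in the sum more than once. No gene (0) of the mitochondrial chromosome was listed.

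**Figure D3:**
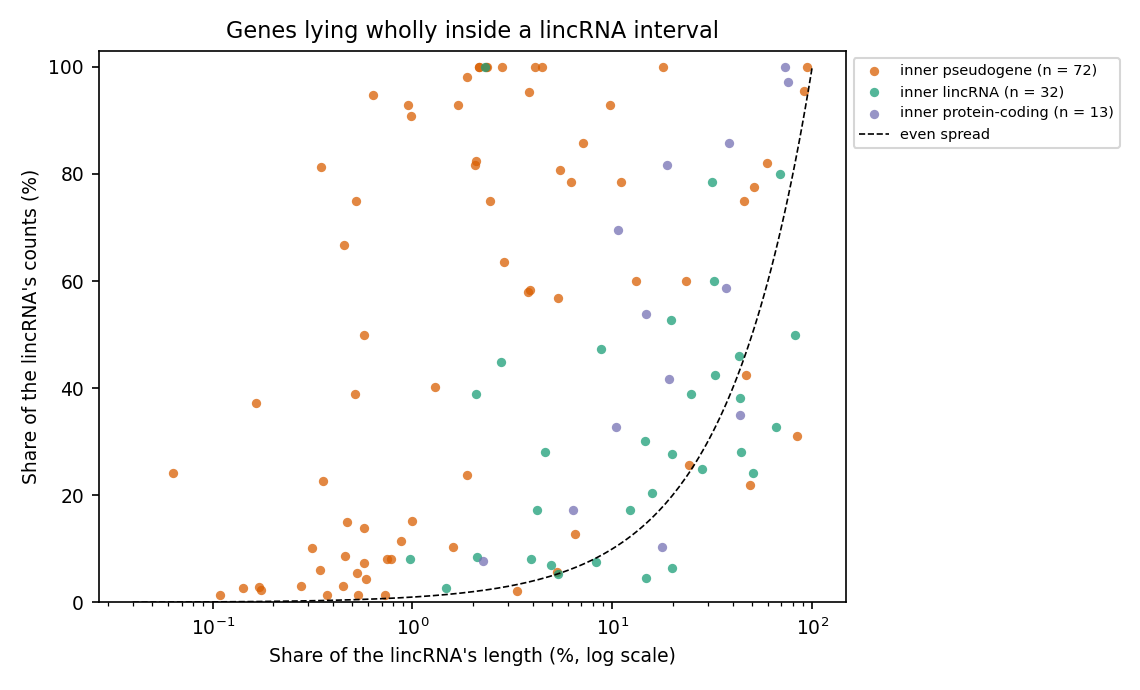
For each gene wholly inside a member, its share of the member's counts (vertical) against its share of the member's length (horizontal, log scale), with enclosed pseudogenes (72 pairs), lincRNAs (32) and protein-coding genes (13) in different colours. The dashed line is where an even spread of counts would lie. Most pseudogenes lie far above it, with 9 pairs at 100%, and a few lie below it. Among lincRNAs and protein-coding genes, 1 pair each is at 100%.

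The density in enclosed pseudogenes was a median of 32.1 times that in the rest of the member over the 70 pairs with a rest of at least 1 kb, or 28.8 with empty rests set at 3 counts. At least 2-fold higher density was found in 63 of these 70 pairs (90.0%), beside 92.7% of pseudogenes in other outer genes, so the members' share is near the background. The floor of the table can add to this share, since a short gene is listed only when it has 6 counts. Its part was not tested apart from the change in the pairs compared. Where an even spread would already have given 6 counts, 6 of 12 pairs passed 2-fold, beside 47.8% elsewhere. For lincRNAs enclosed in members, the median share was 28.1% of the counts in 15.2% of the length (32 pairs).

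The 100 members inside another gene had a median of 13 counts, against 107 in the outer gene. They held a median of 18.0% of the outer gene's counts in 8.55% of its length. Density in the member was at least 2-fold that of the rest of the outer gene for 48 members (37.9 to 58.2%), beside 64.1% of the other 1967 nested genes, 39.9% of nested antisense genes and 55.1% of nested protein-coding genes. Density was at least 2-fold lower for 12 members, beside 8.44% of other nested genes. The median was 1.89-fold. The floor of the table can raise this value, and its part was not tested apart from the change in the members compared. Among the 61 members for which an even spread would give 6 counts or more, 14 (23.0%) were at least 2-fold denser, beside 33.8% of other nested genes, and the median was 0.99-fold.

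The 5 densest nested members held between 28.6% and 100% of the counts of the outer gene. ENSG00000272275 on chromosome 2 (10908001 to 10910184) had 30 counts in 2.18 kb, against 2 in the other 59.6 kb of ATP6V1C2, a gene for a proton pump subunit. This is 409-fold denser, with a wide interval of 104 to 3535. EPB41L4A-AS1 on chromosome 5 (111496223 to 111499973) had 41 counts in 3.75 kb, against 19 in the remaining 82.6 kb of EPB41L4A, a gene of the band 4.1 family. Its density was 47.5 times as high (27.0 to 86.7), and it held 68.3% of the outer count (55.0 to 79.7%). ENSG00000258800 had 6 counts in 0.375 kb, against 15 in the rest of WDR89, and ENSG00000238358 had 11 counts in 3.59 kb, against 11 in the other 326 kb of STEAP2-AS1. The remaining one of the 5, ENSG00000269888, held all 32 counts of LINC02067. Its density was 453 times that of the rest of LINC02067 with that rest set at 3 counts, and the exact interval starts at 347.

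A limit of 200 counts for the outer gene, chosen after the values were seen, left 27 nested members, with a median density of 1.49 times that of the rest. Of these, 8 were at least 2-fold denser and 2 at least 2-fold less dense. The interval lay above equal density for 13 and below it for 4. ENSG00000225339 had 133 counts in 7.09 kb, against 232 in the other 106 kb of NUDT3, which encodes an inositol phosphate hydrolase, and was 8.56 times as dense (6.87 to 10.6). ZBTB20-AS5 had 162 counts in 66.5 kb, against 520 in the rest of ZBTB20, the gene of a transcriptional repressor, or 3.12 times the density (2.60 to 3.73). KIRREL3, an adhesion gene with 1957 counts over 577 kb, encloses 3 members. ENSG00000255317 had 59 counts and 5.94 times the density of the rest (4.50 to 7.69), ENSG00000254938 had 200 counts and 3.10 times (2.66 to 3.59), and KIRREL3-AS2 had 28 counts and 1.92 times (1.27 to 2.78). Lower density than in the rest was found for ENSG00000254263 inside CYRIB, with 14 counts and 0.414 times (0.224 to 0.708), and for ENSG00000254538 inside STAU2, with 23 counts and 0.488 times (0.303 to 0.752). It was also found for ENSG00000229118 inside MIR4435-2HG, with 37 counts and 0.517 times (0.362 to 0.716), and for BMS1P17 inside DUXAP9, with 49 counts and 0.584 times (0.429 to 0.778). Whether these reads come from the lincRNA or from the intron or exon of the gene around it cannot be told apart, because strand is not in the table.

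**Figure D4:**
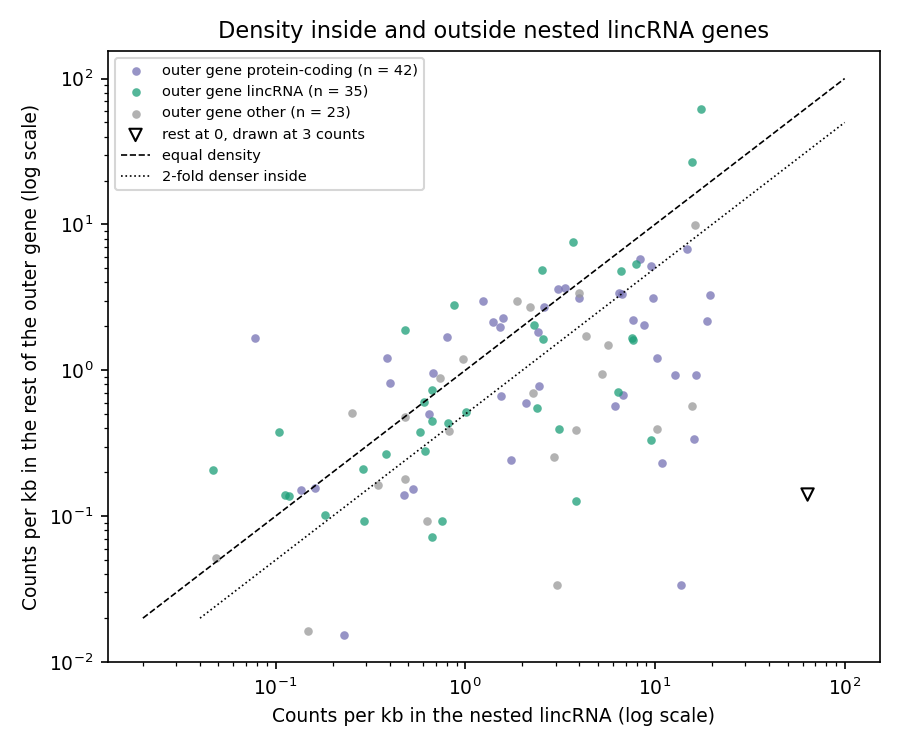
Counts per kb in each of the 100 nested members (horizontal, log scale) against counts per kb in the rest of the outer gene (vertical, log scale), coloured by the class of the outer gene, with lines of equal density (dashed) and of 2-fold higher density inside (dotted). The triangle is ENSG00000269888, whose outer gene had no other count and is drawn at 3 counts, and 48 members lie on or below the dotted line.

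At the other end, the least dense nested member was ENSG00000240050, with 7 counts in 90.1 kb, against 138 in the other 82.3 kb of DSE, a gene for a dermatan sulfate enzyme. Its density was 0.0464 of that of the rest (0.0183 to 0.0981). The other 4 of the lowest 5 lay inside other lincRNA genes. ENSG00000230906 had 8 counts in 171 kb of LINC01828, against 8 in the remaining 38.7 kb. ENSG00000241280 had 18 counts, against 37 in the rest of RDUR, a lincRNA gene of antiviral signalling, and ENSG00000261307 had 6, against 87 in the rest of MIR4527HG. In ENSG00000269987, a 2.33 kb gene on chromosome 22 (31372501 to 31374834) with 130 counts, the inner ENSG00000269972 had 6, and 124 lay in the other 1.99 kb. ENSG00000269987 was second by density among members, at 55.7 counts per kb.

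Some members were minor beside the gene they overlap. RBM25-AS1, 0.985 kb long, had 7 counts (2.81 to 14.4), against 760 in RBM25, a splicing-factor gene that covers 99.5% of it, a log2 ratio of -6.76. Next came ENSG00000224363 with 6 counts inside SRGAP2B (492), a gene with near-identical copies, ENSG00000224959 with 19 inside MIR4435-2HG (1374), KIRREL3-AS2, and ENSG00000253526 with 14 inside ZFPM2-AS1 (825). Their densities per kb were not as far from that of the outer gene. That of ENSG00000224959 was 1.39 times that of the rest of MIR4435-2HG (0.83 to 2.18), and that of ENSG00000253526 was 0.631 times that of the rest (0.343 to 1.06). Both intervals include equal density.

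Partly overlapping members covered the whole range. The overlap took at least 75% of the member in 25 of the 142 and at most 10% in 40. In the first set, the median was 18 counts for the member and 49 for the overlapping gene, and in the second 15.5 and 29. No member of the first set (0) kept counts of its own, against 14 of the second. MUC20-OT1 on chromosome 3 (195384933 to 195393553), also among the 5 highest by density at 28.2 counts per kb, had 243 counts, against 375 in SDHAP2, a pseudogene of a succinate dehydrogenase subunit that covers 99.6% of it. Near-identical copies of this stretch exist, so its count is uncertain. LINC01697 had 261 counts and LINC01695 had 252 on chromosome 21, with 21.5 kb in common. The intervals of these counts were 230 to 295 and 222 to 285. Reads in the shared stretch can add to both counts, so they are not independent and their difference was not tested. ENSG00000197813 had 90 counts, against 88 in CD37, a tetraspanin gene of blood cells, and ENSG00000245156 had 69, against 70 in RAB1B, a vesicle transport gene.

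Of 56 lncRNA genes on a list of well-studied ones, 26 were listed, 11 of them as lincRNA, and 4 were members: FTX, JPX, LINC00472 and EPB41L4A-AS1. FTX overlapped 10 listed genes, the most of any member. The sense-intronic gene ENSG00000271430 within it (73420064 to 73461983) had 183 counts in 41.9 kb, or 32.5% of FTX's 563 (28.6 to 36.5%) in 12.8% of its length. Its density was 3.29 times that of the rest of FTX. The 6 pseudogenes inside FTX had 8 to 17 counts each, and at least 258 counts of FTX lay in no other listed gene. JPX, another gene of the X-inactivation centre, had 37 counts (26.1 to 51.0) over 54.8 kb, of which 35.2 kb are shared with FTX. Per kb, JPX had 0.675 counts and FTX 1.71. LINC00472 on chromosome 6 had 33 counts, against 48 in the lincRNA gene ENSG00000269966 that covers 96.5% of it.

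Of 34 listed genes with a name of microRNA host genes, 17 are annotated as lincRNA and 5 are members. MIR99AHG on chromosome 21 (17442842 to 17859828) had 122 counts (101 to 146) over 417 kb, of which 10 fell in an inner lincRNA gene. MIR4307HG had 96, against 113 in the rest of the lincRNA gene around it, at 1.13 times the density, with an interval that includes equal density. MIR4527HG had 93 counts (75.1 to 114) and MIR583HG 8 (3.45 to 15.8) over 165 kb, inside an antisense gene with 34. MIRLET7A1HG had 11 counts (5.49 to 19.7) in an interval of 1.435 kb, inside the lincRNA gene ENSG00000269946 with 64. Its 3 let-7 genes span 2.955 kb in RefSeq, so that this interval cannot hold all of them. No microRNA gene listed in the table (0) overlapped a member, and the counts above are those of the host intervals.

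By their symbols, 30 members are named as antisense to another gene and 23 of these shared most bases with a protein-coding gene. Their median was 15.5 counts, and 4 kept counts of their own. Of the 56 members with a LINC number, 2 were paired with a protein-coding gene and 30 kept counts of their own, at a median of 20 counts. Names for divergent transcripts were carried by 13 members (median 20), of which 7 kept counts. The 201 members without a symbol had a median of 19, lay inside another gene in 75 cases, and kept counts in 54. Over all 327 members, 28.4% were paired with a protein-coding gene, 30.6% lay inside another gene and 32.1% kept counts. Members inside another gene cannot keep counts. Such members were 10 of the antisense, 6 of the LINC and 0 of the divergent names, so differences between names cannot be told apart from nesting.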

How the data were processed

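RNA recovered by PAR-CLIP of CTCF was measured in U2OS cells. The deposited table holds whole-number counts per Ensembl gene for the merge of 2 replicates, which the authors pooled, per the labels. Bowtie, bedtools and build hg19 are named in the submitters' processing notes. What each tool did, its version, and the use of strand, duplicates and multiply mapped reads were not given in the sources used here. Counts were used as deposited, with no scaling for depth. The smallest count is 6, so a gene not listed had fewer or was not counted.

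Symbols came from a table of Ensembl identifiers and, where that gave none, from RefSeq (126 members matched a symbol, 201 did not). Intervals were taken as 1-based and closed. The overlapping gene is the one sharing most bases, with ties going to the higher count. Subtracting counts of overlapping genes assumes that each read counts for every interval it lies in. Nested density is the count per kb inside against that in the rest of the outer gene (at least 1 kb). With 1 merged sample there was no test between groups and no p-value. Intervals are exact (scipy 1.17.1). The calculation of density was tested on simulated data. Named members are the 10 highest by count, 5 by density, 5 at each end of the ratio and of the nested density, 5 with most counts left, those on 2 gene lists and 4 of the 22 with a count equal to that of an overlapping gene. Other members named, including those with pseudogenes, inside KIRREL3, NUDT3, ZBTB20, CYRIB, STAU2, MIR4435-2HG and DUXAP9, and next to CD37 and RAB1B, were chosen after their values were seen. The members and lists were chosen with earlier results of these data known.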

Additional observations from a re-analysis of the deposited data

How the results depend on the processing

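Of 46 alternatives over 12 values, 34 stayed within the main value's 95% interval (counts of members, within 1.5 times), 11 moved and 1 turned its direction. With protein-coding overlapping genes only, the share of members with the lower count was 77.9% and the median log2 ratio -2.05. Without overlapping pseudogenes, an alternative chosen after seeing the data, they were 67.0% and -1.10. Requiring an overlap of at least 50% of the shorter interval left 260 members, of which 38.5% lay inside, 33.1% around and 28.5% partly over the other gene, and 37.7% kept counts of their own. With at least 10 counts in both genes, 218 members remained and their median count was 32. Restricting nested members to those for which an even spread gives 6 counts, also chosen after seeing the data, moved the share with 2-fold density from 48.0% to 23.0% and turned the median from 1.89 to 0.99, just under equal density. The cause was not tested. With outer genes of at least 30 counts, likewise chosen after seeing the data, the share of enclosed pseudogenes with 50% or more of the counts was 36.5% in place of 51.4%. With 1 merged sample no replicate could be left out, and the order of genes near 6 counts is not resolved at this depth. No paired analysis was possible because the replicates' own counts were not analysed here.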

Other observations

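Around the centromere of chromosome 1, a stretch rich in near-identical copies, between 120 and 150 Mb, lay 18 of the 37 members of that chromosome. The stretch held 21 of the 85 lincRNA genes and 114 of the 1680 listed genes (6.79%) of chromosome 1. No test of the difference was made. The 18 members had counts of 6 to 311, with a median of 31.5. ENSG00000185044 had 311 counts (143354963 to 143465438), and the lincRNA gene ENSG00000238261 inside it had 164. ENSG00000203849 had 210 and ENSG00000230880 had 112, with most of their length in common. SRGAP2-AS1 had 200 counts, against 164 in SRGAP2C, a partial copy of the neuronal gene SRGAP2 that it encloses. Reads of such copies can be divided between places, so these counts are uncertain. Among chromosomes with at least 10 lincRNA genes, the share that were members ran from 23.1% on chromosome 20 (3 of 13) to 52.2% on chromosome 12 (24 of 46), beside 37.8% over all lincRNA genes.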
